A study of Homo sapiens with 36 samples.

Results

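VCP, 6 of its cofactors and 3 zinc finger genes were followed across triple-negative breast cancer cells treated with a proteasome inhibitor, the cryptochrome stabilizer SHP1705, or both. The 10 genes (VCP, NPLOC4, UFD1, NSFL1C, FAF1, FAF2, UBXN4, ZFAND2A, ZFAND2B and ZFAND5) were chosen by name from the 54583 genes of each count table, and all 10 passed the filter on low counts in every table. The cells were MDA-MB-231, an established human line that lacks the oestrogen and progesterone receptors, and the assay was polyA RNA-seq with 36 libraries in 3 tables of 12. In the first table, cells received SHP1705 at 10 µM with MG132 at 100 nM (the combination), MG132 alone, SHP1705 alone or the DMSO vehicle for 8 h. In the other tables carfilzomib at 10 nM took the place of MG132, for 8 h and for 24 h. MG132 is a reversible peptide aldehyde and carfilzomib an irreversible epoxyketone, and both block the proteasome. Each group held 3 libraries, and the design text mentions 3 independent experiments but does not tie them to the libraries of a group, so a p-value reflects only how far libraries of a group vary, possibly for technical reasons.

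VCP is a hexameric ATPase that pulls ubiquitylated proteins out of membranes and complexes, so that they can be degraded by the proteasome. Its choice of substrate depends on cofactors: the heterodimer of UFD1 and NPLOC4 recruits it to ubiquitin chains, NSFL1C guides it in membrane fusion, and FAF1, FAF2 and UBXN4 carry UBX domains that bind it, FAF2 and UBXN4 at the membrane of the endoplasmic reticulum. ZFAND2A is a stress-induced AN1-type zinc finger protein that associates with the proteasome, ZFAND2B is its membrane-anchored relative, and ZFAND5 binds both ubiquitin chains and the proteasome.

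On GRCh38.p14, in the RefSeq annotation, VCP spans 35056064 to 35072625 of chromosome 9, NPLOC4 spans 81556885 to 81637112 of chromosome 17 and UFD1 spans 19449911 to 19479193 of chromosome 22. NSFL1C spans 1442166 to 1466849 of chromosome 20, FAF1 spans 50437028 to 50960267 of chromosome 1, FAF2 spans 176448385 to 176510074 of chromosome 5 and UBXN4 spans 135741855 to 135785056 of chromosome 2. ZFAND2A spans 1148850 to 1160196 of chromosome 7, ZFAND2B spans 219206782 to 219209648 of chromosome 2 and ZFAND5 spans 72351413 to 72365208 of chromosome 9. Whether counting used strand is not stated, and reads of an overlapping antisense gene therefore cannot be told apart from those of the member. Among the overlapping genes that had rows, the most abundant was LOC107985946 at the 5′ end of UBXN4, with at most 72 counts in a library. Summed over all libraries, its counts were 0.537% of those of UBXN4.

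The promoters of 3 genes are shown because these genes stand for the different patterns: ZFAND2A had the highest fold change, VCP had the highest level per length in DMSO-treated cells, and ZFAND2B did not move with the others. Each sequence holds the 250 bases before the gene's start, read 5′ to 3′ on the gene's strand, from RefSeq on GRCh38.p14. Capitals mark matches to the heat shock element core TTCNNGAA and to CCAAT, on either strand.
ZFAND2A, chr7:1160197-1160446, minus strand: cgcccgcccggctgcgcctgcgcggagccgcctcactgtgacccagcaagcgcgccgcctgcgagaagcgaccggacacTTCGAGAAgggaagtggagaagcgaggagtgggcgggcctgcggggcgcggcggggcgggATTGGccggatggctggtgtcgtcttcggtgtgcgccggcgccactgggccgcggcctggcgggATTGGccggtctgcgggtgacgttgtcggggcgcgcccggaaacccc
VCP, chr9:35072626-35072875, minus strand: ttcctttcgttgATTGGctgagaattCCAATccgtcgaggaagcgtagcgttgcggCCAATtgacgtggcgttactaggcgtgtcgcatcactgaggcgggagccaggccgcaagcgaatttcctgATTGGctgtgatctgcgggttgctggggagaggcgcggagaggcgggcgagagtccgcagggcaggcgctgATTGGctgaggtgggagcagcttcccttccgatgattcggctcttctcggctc
ZFAND2B, chr2:219206532-219206781, plus strand: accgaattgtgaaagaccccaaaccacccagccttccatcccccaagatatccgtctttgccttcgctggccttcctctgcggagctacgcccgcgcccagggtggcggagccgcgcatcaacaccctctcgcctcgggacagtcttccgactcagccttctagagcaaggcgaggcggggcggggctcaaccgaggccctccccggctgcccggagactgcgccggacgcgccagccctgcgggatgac
The ZFAND2A promoter held TTCGAGAA at position -171 from the start and ATTGG, the reverse complement of CCAAT, at -111 and -47. The VCP promoter held no TTCNNGAA and 5 matches to CCAAT, at -238, -224, -194, -124 and -53, and the 250 bases of ZFAND2B held neither motif. Across 35116 RefSeq promoters, each taken with the same window before the start and a short stretch after it, 7.74% held TTCNNGAA and 34.6% held CCAAT. Promoters were found for 9 of the 10 genes, and of the others only FAF2 held TTCNNGAA (TTCCGGAA at -180). The other orientation of the heat shock element, GAANNTTC, was present in 6.77% of promoters. Among the 9 genes only FAF1 held it (GAAGCTTC at -164). The antioxidant response core TGACNNNGC, present in 13.3% of promoters, matched at -189 in VCP, at -212 in ZFAND2A, at -18 in FAF2 and at -146 and -114 in 1 promoter of ZFAND5. CCAAT also matched at -177 in NPLOC4 and at -55 and -19 in separate promoters of ZFAND5. The cyclic AMP response element TGACGTCA, present in 1.85% of promoters, matched only in ZFAND2B, at -4 and reaching past the start. The CHOP-ATF4 composite TGATGNAAT, present in 0.991% of promoters, matched in none of the 9 genes. A match is a description of letters and not of a bound site.

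Libraries held 34200000 to 39300000 counts in the MG132 table, 17800000 to 27700000 in the carfilzomib table at 8 h and 18900000 to 34000000 at 24 h. The line's mesenchymal markers (VIM, CD44, AXL, CAV1, MSN and LGALS1) lay at 246.5 to 1546 CPM in every library, where CPM is counts scaled to the library total adjusted by TMM factors. Of the genes listed as absent or low in the line, ESR1 and PGR lay at or under 0.444 CPM. The others on that list were ERBB2, EPCAM, GATA3 and CDH1, and these were detected. In the DMSO libraries of the MG132 table ERBB2 lay at 55.3 to 58.2 CPM and EPCAM at 22.2 to 24.6 CPM. GATA3 lay at 7.01 to 7.55 CPM and CDH1 at 1.81 to 2.04 CPM in the same libraries. ERBB2 lay at 87.5 to 91.7 CPM in the DMSO libraries at 24 h. In the carfilzomib table at 8 h, libraries with the same label stood far apart. HSPA1A, which encodes the inducible HSP70 chaperone, measured 892, 12020 and 15052 CPM in libraries labelled combination, 792, 726 and 896 CPM in those labelled carfilzomib, 19856, 705 and 693 CPM in those labelled SHP1705, and 14559, 23605 and 23242 CPM in those labelled DMSO. PER3, a clock gene, lay at 4.46 to 5.07 CPM with SHP1705 against 13.8 to 14.7 CPM with DMSO in the MG132 table, and at 0.71 to 1.43 against 18.9 to 22.9 CPM at 24 h. In the table at 8 h it measured 2.25, 9.62 and 7.91 CPM in libraries labelled SHP1705 against 8.19, 2.06 and 1.55 CPM in libraries labelled DMSO. PER3 measured 6.78, 1.26 and 1.69 CPM in libraries labelled carfilzomib and 1.92, 7.69 and 8.20 CPM in those labelled combination. At 24 h it lay at 24.2 to 25.3 CPM with carfilzomib and 0.619 to 1.05 CPM with the combination. Because some of these levels go against the label in each of the 4 groups, no direction of a drug effect is read from that table. Its libraries are called by their labels.

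With SHP1705 and MG132 together, 9 of the 10 genes rose against DMSO, by 1.22-fold to 15.4-fold, and the median log2 fold change of the 10 was 0.93 against -0.01 over all genes tested. Of all 16591 genes, 29.2% were called higher in this comparison, at an adjusted p under 0.05 by edgeR's quasi-likelihood test, and 29.7% were called lower. ZFAND2B was the exception.

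VCP measured 1243, 1292 and 1296 CPM with the combination, 540.8, 542.1 and 562.4 CPM with MG132, 538.2, 547.5 and 527.2 CPM with SHP1705, and 528.5, 527.5 and 530.1 CPM with DMSO. All 3 combination libraries lay above every other library, while the other 9 lay within a narrow band. The log2 fold change was 1.27 ± 0.03 (SE, n = 3 each) for the combination against DMSO (edgeR adjusted p = 1.5e-18). Set on exon length, VCP averaged 292 ± 6.75 CPM per kb with the combination and 121 ± 0.302 CPM per kb with DMSO (SD, n = 3 each), the highest level per length among the 10 in DMSO.

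The UFD1 and NPLOC4 genes, for the heterodimer that recruits VCP to ubiquitin chains, rose by similar factors. UFD1 measured 119.1, 112 and 106 CPM with the combination, 59.8, 60.43 and 62.21 CPM with MG132, 56.37, 59.09 and 56.24 CPM with SHP1705, and 58.62, 59.28 and 57.36 CPM with DMSO. NPLOC4 measured 338, 354.7 and 358.7 CPM with the combination, 193.3, 191.8 and 189.8 CPM with MG132, 184.3, 193.1 and 192.8 CPM with SHP1705, and 187.8, 189.3 and 189.3 CPM with DMSO. For both genes the combination libraries stood clear of the other 9. Their log2 fold changes against DMSO were 0.94 ± 0.04 for UFD1 and 0.89 ± 0.03 for NPLOC4 (SE; edgeR adjusted p = 2.7e-13 and 3.1e-15).

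NSFL1C, the cofactor of membrane fusion, averaged 228.2 ± 7.17 CPM with the combination, 109.8 ± 3.72 CPM with MG132, 107.3 ± 2.3 CPM with SHP1705 and 108.4 ± 2.01 CPM with DMSO (SD, n = 3 each). UBXN4, an anchor of VCP at the endoplasmic reticulum, averaged 221.4 ± 8.21 CPM with the combination, 119.6 ± 0.931 CPM with MG132, 118.7 ± 4.7 CPM with SHP1705 and 117.5 ± 4.41 CPM with DMSO. Both rose against DMSO without overlap of the groups, with log2 fold changes of 1.07 ± 0.03 and 0.91 ± 0.04 (SE; edgeR adjusted p = 2.1e-15 and 6.75e-14). The other UBX genes moved less. FAF1 measured 57.79, 65.71 and 66.46 CPM with the combination against 47.44, 49.23 and 49.76 CPM with DMSO, and FAF2 measured 117.9, 118.9 and 125.8 CPM against 99.95, 97.07 and 99.38 CPM. Their groups did not overlap, and both changes passed the test at log2 fold changes of 0.38 ± 0.05 and 0.29 ± 0.03 (SE; edgeR adjusted p = 2.4e-06 and 4.0e-07).

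The 3 zinc finger genes behaved in 3 ways. ZFAND2A measured 378.4, 370.5 and 352.3 CPM with the combination, 23.44, 24.18 and 26.47 CPM with MG132, 22.37, 21.67 and 22.68 CPM with SHP1705, and 24.7, 24.79 and 22 CPM with DMSO. The combination libraries were 15.4-fold above DMSO on the fitted scale, and the other 9 lay between 21.67 and 26.47 CPM. Per length, ZFAND2A averaged 324 ± 11.8 CPM per kb with the combination and 21.0 ± 1.4 CPM per kb with DMSO (SD), so that it stood above VCP with the combination but beside ZFAND5 (21.6 ± 0.251 CPM per kb) and FAF2 (21.9 ± 0.337 CPM per kb) with DMSO. ZFAND5 measured 268.5, 270.5 and 277 CPM with the combination and 130.6, 131.2 and 128.3 CPM with DMSO, a log2 fold change of 1.06 ± 0.03 (SE; edgeR adjusted p = 4.6e-16). ZFAND2B measured 9.74, 9.239 and 10.28 CPM with the combination against 10.67, 11.6 and 11.17 CPM with DMSO. The ZFAND2B groups did not overlap, with the combination below, but the difference of -0.19 ± 0.08 missed the threshold (edgeR adjusted p = 0.056).

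**Figure D1:**
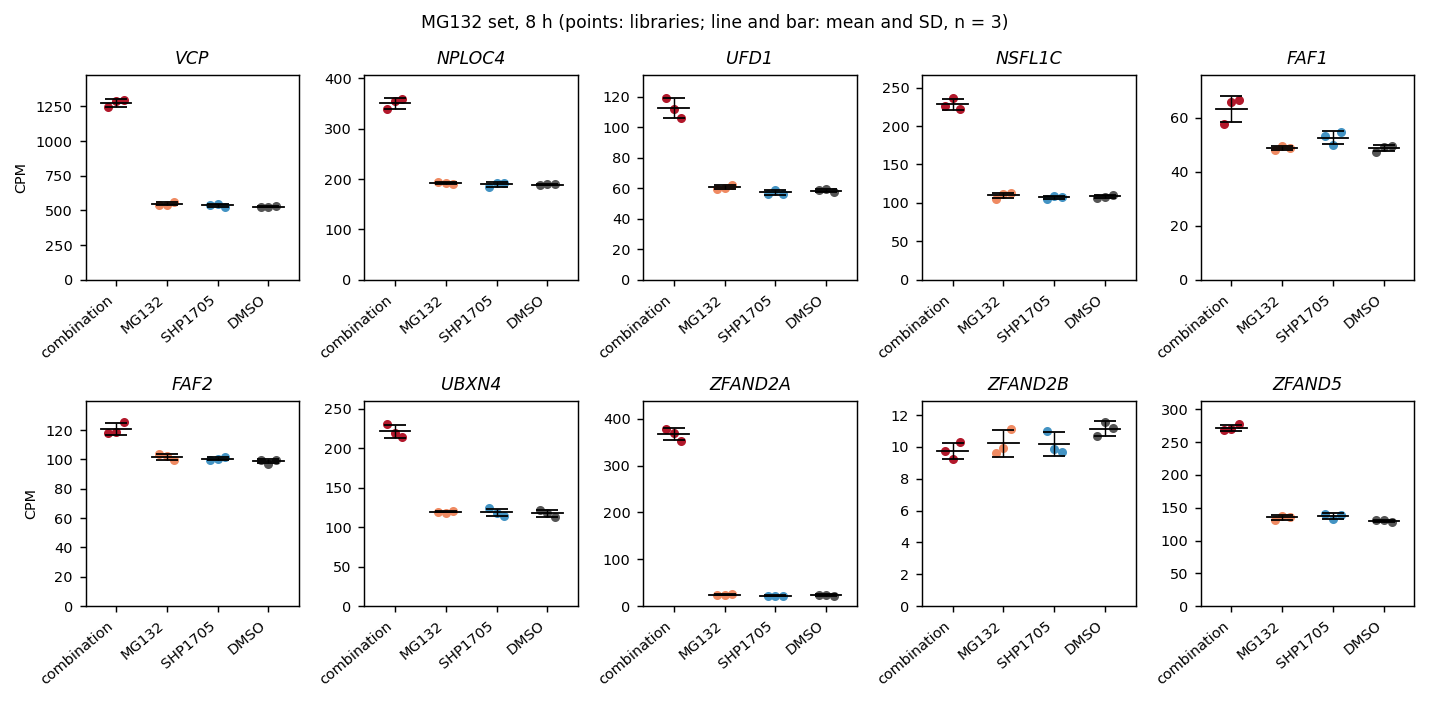
Levels of the 10 genes in the MG132 table at 8 h, in CPM on an axis that starts at 0, with points for libraries and a line and bar for the mean and SD of 3 libraries. In 9 panels the combination libraries stand above the MG132, SHP1705 and DMSO libraries, and in the ZFAND2B panel the groups lie between 9.24 and 11.6 CPM.

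Neither drug alone moved any of the 10 past the threshold in this table. With SHP1705 against DMSO 0 members were called by edgeR and 0 by DESeq2, where 7.53% of all genes were called by edgeR. An unadjusted edgeR p under 0.05 was reached by 3495 of all 16591 genes and by 2 members. These were ZFAND5, at 140.3, 132.8 and 139.5 CPM with SHP1705, and FAF1, at 53.26, 49.94 and 54.61 CPM with SHP1705, with log2 differences of 0.08 ± 0.03 and 0.11 ± 0.05 (SE; edgeR adjusted p = 0.14 and 0.22). Their SHP1705 libraries lay just above their DMSO libraries. With MG132 against DMSO 0 of the 10 and 0% of all genes were called by edgeR. An unadjusted edgeR p under 0.05 was reached there by 1574 of all 16591 genes and by 0 members. DESeq2 called 0 of the 5 members for which it gave an adjusted p. The largest of these differences among the 9 genes that rose with both drugs was 0.06 ± 0.04 on the log2 scale, for UFD1.

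The combination was also compared with MG132 alone, and with the sum of the single effects. Against MG132, sharing the combination libraries of the comparison above, 9 members were higher where 28.2% of all genes were, with a log2 fold change of 1.22 ± 0.03 for VCP, 3.89 ± 0.05 for ZFAND2A and -0.07 ± 0.08 for ZFAND2B (SE). The interaction, which is the log2 effect of the combination minus those of MG132 and SHP1705 alone, was called higher than 0 for 9 members, where it was for 24.7% of all genes. It was 3.99 ± 0.07 for ZFAND2A and 1.20 ± 0.04 for VCP (SE; edgeR adjusted p = 1.7e-18 and 2.0e-15). It was smaller for FAF1 at 0.27 ± 0.07 and FAF2 at 0.22 ± 0.05 (edgeR adjusted p = 0.0036 and 7.0e-04), and 0.06 ± 0.12 for ZFAND2B (edgeR adjusted p = 0.70).

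A marker of another cell type moved with the groups of the MG132 table. POSTN, a matrix gene of fibroblasts, measured 98.3, 222 and 242 CPM with the combination, 33.6, 0.161 and 173 CPM with MG132, 0.267, 28.2 and 29.4 CPM with SHP1705, and 0.255, 0.110 and 0.111 CPM with DMSO. The summed level of the 11 fibroblast genes listed was 173 to 322 CPM with the combination, 111 to 287 CPM with MG132, 113 to 156 CPM with SHP1705 and 104 to 106 CPM with DMSO, with 9 to 11 of the 11 having a count in each library. Without POSTN the sum was 74.4 to 80.5 CPM with the combination and 103.4 to 105.9 CPM with DMSO, and CDH11, the most abundant other gene of the list, lay at 52.3 to 54.3 CPM with the combination and 85.4 to 88.7 CPM with DMSO. COL1A1, PDGFRB, PDGFRA and FAP went the other way. COL1A1 lay at 7.93 to 11.4 CPM with the combination and 4.70 to 5.68 CPM with DMSO. PDGFRB lay at 3.67 to 3.81 against 2.87 to 3.44 CPM, and PDGFRA at 0.342 to 1.08 against 0.0828 to 0.306 CPM. FAP lay at 0.129 to 0.210 against 0.0255 to 0.111 CPM. The ranges of COL1A2, COL3A1, LUM, DCN and THY1 overlapped between these groups. DCN, FAP and THY1 were at or under 0.3 CPM in all 12 libraries. In bulk RNA, a few cells of another type and a low level in every cell cannot be told apart. The MG132 library with 173 CPM of POSTN had 562.4 CPM of VCP, 26.47 CPM of ZFAND2A and 926 CPM of HSPA1A, the highest of the 9 libraries without the combination for VCP and ZFAND2A. Leaving out the 4 libraries of SHP1705 or MG132 above 5 CPM of POSTN kept only a single library in each of these groups. In that fit the interaction of FAF1 was 0.22 on the log2 scale, against 0.27 with all libraries. With so few libraries, calls are not compared. Since POSTN separates every combination library from every DMSO library, its part in the comparison of these groups was not tested.

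Genes of the same pathway outside the 10 also differed with the combination of SHP1705 and MG132 against DMSO, though less uniformly. Over all genes 29.2% were called higher and 29.7% lower in this comparison. Of 18 other VCP cofactors tested, 12 were higher and 1 was lower, with a median log2 fold change of 0.23. PLAA, a ubiquitin-binding partner of VCP, rose by 1.08 ± 0.04 on the log2 scale, VCPIP1, a deubiquitylase, by 0.81 ± 0.06, and UBE4B, a ubiquitin chain ligase, by 0.55 ± 0.04 (SE). SVIP, a small VCP-interacting inhibitor of degradation from the endoplasmic reticulum that was chosen after its value was seen, fell by 0.49 ± 0.05. Of 11 partners in degradation from the endoplasmic reticulum 8 were higher, with a median of 0.33, and these included HERPUD1 at 2.34 ± 0.05, the ligase partner SEL1L at 0.68 ± 0.03 and the channel subunit DERL1 at 0.62 ± 0.04. ZFAND3 (1.01 ± 0.03) and ZFAND6 (0.17 ± 0.04) were higher among the 4 other ZFAND genes. Of 8 proteasomal ubiquitin receptors and shuttles, 4 were higher and 2 lower, among the higher UBQLN1 at 1.10 ± 0.03, RAD23B at 0.71 ± 0.03 and PSMD4 at 0.81 ± 0.03. DDI2, a protease and 1 of the lower genes, was at -0.54 ± 0.07 and was chosen after its value was seen. With SHP1705 alone against DMSO, 7.53% of all genes were called. The calls in these lists were UBXN7 at 0.20 ± 0.06, SEL1L at 0.18 ± 0.03 and HERPUD1 at 0.18 ± 0.05, all higher. MG132 alone gave 0, as it did over all genes.

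At 24 h carfilzomib alone was enough to move all 10 genes. Against DMSO 9 were higher, where 10.1% of all 16183 genes were, and ZFAND2B was lower, where 11.4% were. The median log2 fold change of the 10 was 0.46, against 0.00 over all genes tested. Adding SHP1705 gave 9 higher than DMSO, where 13.0% of all genes were higher and 14.3% lower, with a median of 0.33. Both comparisons share the DMSO libraries.

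VCP measured 959.5, 929.5 and 986 CPM with the combination, 963.9, 984.4 and 950.8 CPM with carfilzomib, 577, 584 and 571 CPM with SHP1705, and 547.7, 537.6 and 567.5 CPM with DMSO. The combination and carfilzomib libraries overlapped and stood above all others. Its log2 fold change was 0.80 ± 0.04 for the combination and 0.81 ± 0.04 for carfilzomib against DMSO (SE; edgeR adjusted p = 4.1e-13 and 5.4e-13), and -0.01 ± 0.04 between the 2 treatments. NSFL1C had the same order, averaging 231.2 ± 2.54 CPM with the combination, 232.6 ± 17.1 CPM with carfilzomib, 133 ± 4.71 CPM with SHP1705 and 132.5 ± 6.67 CPM with DMSO (SD, n = 3 each).

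UFD1 had the largest fold of the 10 in both comparisons with DMSO at 24 h. It measured 176.8, 188.7 and 187.2 CPM with the combination, 147.5, 158.4 and 140.8 CPM with carfilzomib, 81.41, 85.52 and 78.88 CPM with SHP1705, and 77.74, 75.14 and 75.38 CPM with DMSO. Every combination library lay above every carfilzomib library, which in turn lay above those of SHP1705. The combination exceeded DMSO by 1.28 ± 0.05 on the log2 scale and carfilzomib exceeded it by 0.97 ± 0.05 (SE; edgeR adjusted p = 5.4e-14 and 6.3e-12). NPLOC4, its partner, measured 253.8, 264.6 and 259.2 CPM with the combination, 273.9, 284.5 and 259.4 CPM with carfilzomib and 213.9, 207.3 and 211.6 CPM with DMSO. The NPLOC4 folds against DMSO were smaller, at 0.30 ± 0.04 for the combination and 0.37 ± 0.04 for carfilzomib.

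UBXN4 measured 105.1, 105.4 and 108.5 CPM with the combination, 116, 119.3 and 132.3 CPM with carfilzomib, 80.94, 92.7 and 95.89 CPM with SHP1705, and 85.58, 82.13 and 82.91 CPM with DMSO. Here the order of the 2 treatments was the opposite of that for UFD1, with the combination below carfilzomib in every library. FAF1 and FAF2 rose by 0.34 ± 0.06 and 0.32 ± 0.05 on the log2 scale with carfilzomib against DMSO, and by 0.31 ± 0.06 and 0.24 ± 0.05 with the combination (SE).

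ZFAND2A measured 52.68, 48.69 and 53.7 CPM with the combination, 45.63, 45.99 and 39.12 CPM with carfilzomib, 23.8, 23.03 and 24.32 CPM with SHP1705, and 26.02, 24.85 and 27.03 CPM with DMSO. It was 1.99-fold higher with the combination and 1.68-fold higher with carfilzomib than with DMSO. ZFAND5 measured 198.6, 194.4 and 189.4 CPM with the combination, 180.4, 182.9 and 181 CPM with carfilzomib and 154.8, 163.1 and 157.4 CPM with DMSO. Its rise against DMSO was called in both, at 0.29 ± 0.05 and 0.20 ± 0.05 on the log2 scale (SE; edgeR adjusted p = 7.1e-05 and 0.0052). ZFAND2B measured 13.78, 15 and 13.62 CPM with the combination, 11.23, 12.57 and 11.81 CPM with carfilzomib and 16.27, 15.28 and 15.87 CPM with DMSO. It fell by 0.41 ± 0.10 on the log2 scale with carfilzomib (edgeR adjusted p = 0.0043), while the combination libraries, which also lay below those of DMSO, differed by -0.16 ± 0.10 (edgeR adjusted p = 0.25).

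**Figure D2:**
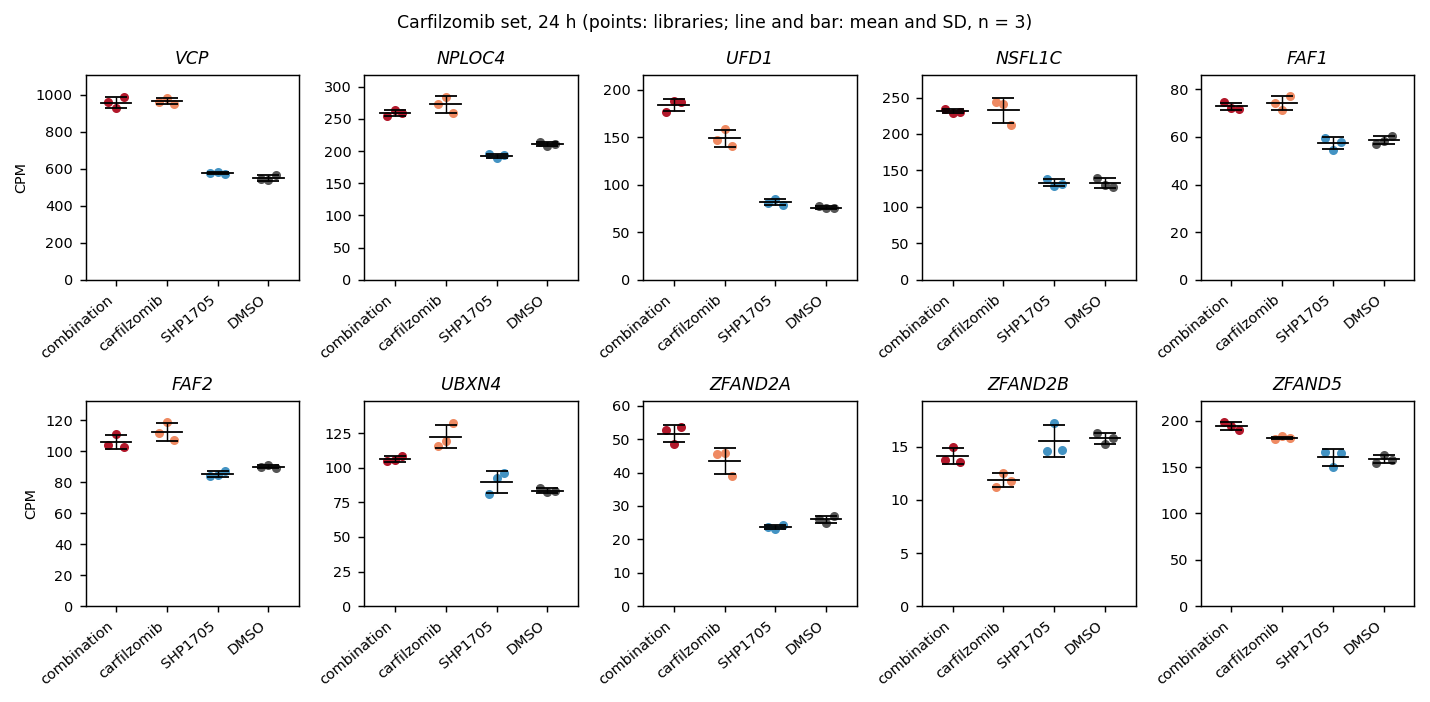
Levels of the 10 genes in the carfilzomib table at 24 h, in CPM on an axis that starts at 0, with points for libraries and a line and bar for the mean and SD of 3 libraries. Combination and carfilzomib libraries overlap for VCP, from 929.5 to 986 CPM, separate upwards for UFD1 and downwards for UBXN4, and ZFAND2B is lowest with carfilzomib.

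Between the combination and carfilzomib at 24 h, 2 members were higher, where 4.36% of all genes were, and 1 was lower, where 4.67% were. UFD1 was higher by 0.31 ± 0.05 and ZFAND2A by 0.25 ± 0.07, and UBXN4 was lower at -0.20 ± 0.06 on the log2 scale (SE; edgeR adjusted p = 5.1e-04, 0.028 and 0.036). ZFAND2B also had groups that did not overlap, at 0.25 ± 0.10, but missed the threshold (edgeR adjusted p = 0.12). The UFD1 call stood in every alternative run. The calls of ZFAND2A and UBXN4 were both lost without replicate 3 of carfilzomib (0.17 for ZFAND2A and -0.15 for UBXN4, with edgeR adjusted p = 0.13 for both), without replicate 1 of the combination and without replicate 3 of the combination. That of UBXN4 was also lost without replicate 2 of the combination or replicate 3 of DMSO (edgeR adjusted p = 0.11 and 0.0504).

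SHP1705 alone at 24 h gave 0 calls among the 10 by edgeR, where 4.46% of all genes were called. An unadjusted edgeR p under 0.05 was reached by 2668 of all 16183 genes and by 1 member. That gene was NPLOC4, at 195.3, 189.1 and 193.7 CPM with SHP1705 against 213.9, 207.3 and 211.6 CPM with DMSO. Its groups did not overlap, its log2 difference was -0.13 ± 0.04 (SE; edgeR adjusted p = 0.11), and DESeq2 called it (adjusted p = 0.048). The interaction at 24 h gave 0 calls by edgeR, where 0.482% of all genes were called. For it, 2202 of all 16183 genes had an unadjusted edgeR p under 0.05, as did 3 members. DESeq2 called 2 of them, UBXN4 at -0.31 and ZFAND2A at 0.37 on the log2 scale (adjusted p = 0.024 and 0.036; edgeR adjusted p = 0.11 and 0.10).

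**Figure D3:**
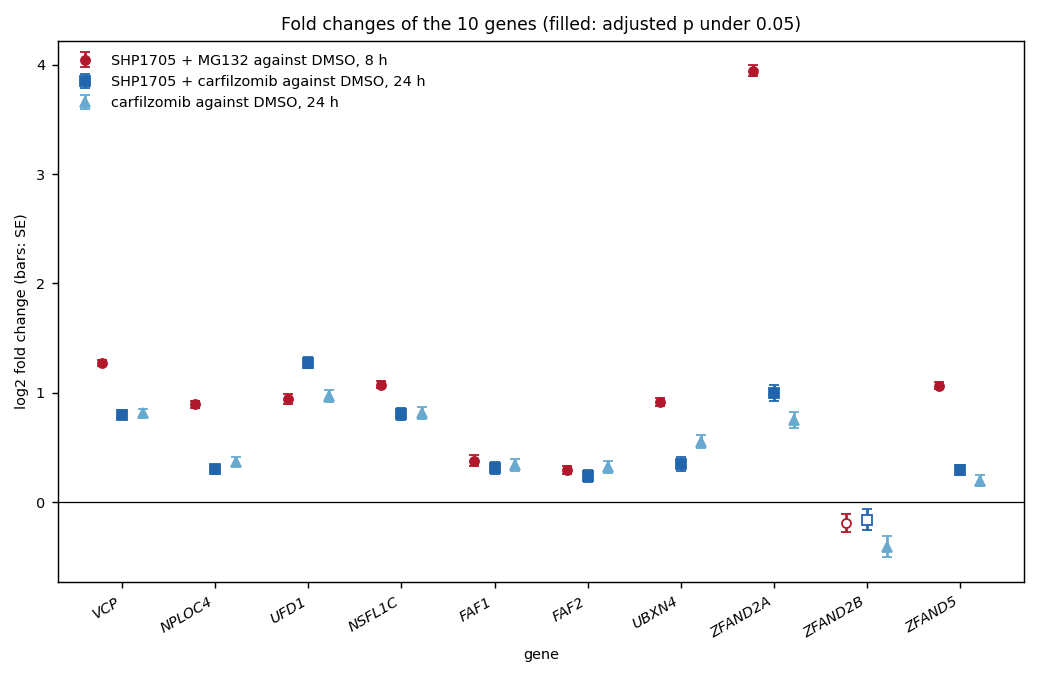
Log2 fold changes of the 10 genes with SE bars for 3 comparisons with DMSO, filled where the edgeR adjusted p was under 0.05. ZFAND2A stands apart at 3.94 for SHP1705 with MG132 at 8 h, UFD1 is the highest point of both 24 h comparisons at 1.28 and 0.97, and ZFAND2B is the only gene below 0.

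At 24 h some of the other pathway genes were also called. Over all genes, carfilzomib against DMSO called 10.1% higher and 11.4% lower. The combination against DMSO called 13.0% higher and 14.3% lower. Calls among the partners in degradation from the endoplasmic reticulum, at most 1 of 11 in either direction, were near or under these shares. With carfilzomib against DMSO, 5 of 18 other VCP cofactors were higher (median 0.18), including PLAA at 0.76 ± 0.06, UBE4B at 0.32 ± 0.05 and YOD1, a deubiquitylase of the VCP complex, at 0.50 ± 0.11 (log2, SE). Of the 11 partners in degradation from the endoplasmic reticulum, DERL1 was higher at 0.16 ± 0.06 and the ligase SYVN1 lower at -0.16 ± 0.06 (median -0.06). ZFAND4 was the 1 of 4 other ZFAND genes called higher, at 0.64 ± 0.17. Of the 8 receptors and shuttles 4 were higher and 2 lower, among the higher PSMD4 at 0.71 ± 0.05, UBQLN1 at 0.68 ± 0.05 and ADRM1 at 0.48 ± 0.05, while UBQLN4, 1 of the lower genes, was at -0.18 ± 0.05 and was chosen after its value was seen. With the combination against DMSO, 9 of the 18 cofactors were higher, with PLAA at 0.53 ± 0.06, UBXN1 at 0.30 ± 0.05 and NGLY1 at 0.37 ± 0.07, and SVIP was lower at -0.30 ± 0.09. In that comparison AUP1 (0.15 ± 0.05) and ZFAND6 (0.25 ± 0.06) were the 1 gene higher in each of their lists, and 4 of the 8 receptors and shuttles were higher and 1 lower, with PSMD4 at 0.78 ± 0.05. SHP1705 alone, with which 4.46% of all genes were called, gave 2 calls in these lists at 24 h. These were ANKZF1 at 0.46 ± 0.07 and ASPSCR1 at -0.32 ± 0.09. The combination was below carfilzomib for PLAA (-0.22 ± 0.06), UBQLN1 (-0.22 ± 0.05) and ZFAND4 (-0.57 ± 0.17), and above it for UBXN1 (0.20 ± 0.05) and UBQLN4 (0.17 ± 0.05). Over all genes 4.67% were called lower and 4.36% higher in that comparison.

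In the carfilzomib table at 8 h the members separated the libraries in the way HSPA1A did, and not by label. VCP measured 553, 1303 and 1332 CPM in libraries labelled combination, 608.1, 583.6 and 583.5 CPM in those labelled carfilzomib, 1389, 611 and 581.2 CPM in those labelled SHP1705, and 1339, 1520 and 1557 CPM in those labelled DMSO. ZFAND2A measured 30.97, 109.7 and 130.2 CPM in libraries labelled combination, 31.33, 29.5 and 24.55 CPM in those labelled carfilzomib, 185.6, 24.56 and 29.9 CPM in those labelled SHP1705, and 118.9, 218.9 and 204.8 CPM in those labelled DMSO. The 6 libraries with at least 12020 CPM of HSPA1A were the 6 highest for both genes. They were also the 6 highest for NPLOC4, UFD1, NSFL1C, FAF1, FAF2, UBXN4 and ZFAND5. How many of all genes split the libraries in this way was not counted. The split therefore describes the libraries and is not a result about the members. ZFAND2B ran nearly opposite to that order, and the 5 libraries above 14 CPM of ZFAND2B were all among the 6 lowest for HSPA1A. It measured 16.75, 10.14 and 11.89 CPM in libraries labelled combination, 18.1, 17.24 and 14.98 CPM in those labelled carfilzomib, 12.44, 12.81 and 16.21 CPM in those labelled SHP1705, and 13.2, 12.74 and 11.39 CPM in those labelled DMSO.

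**Figure D4:**
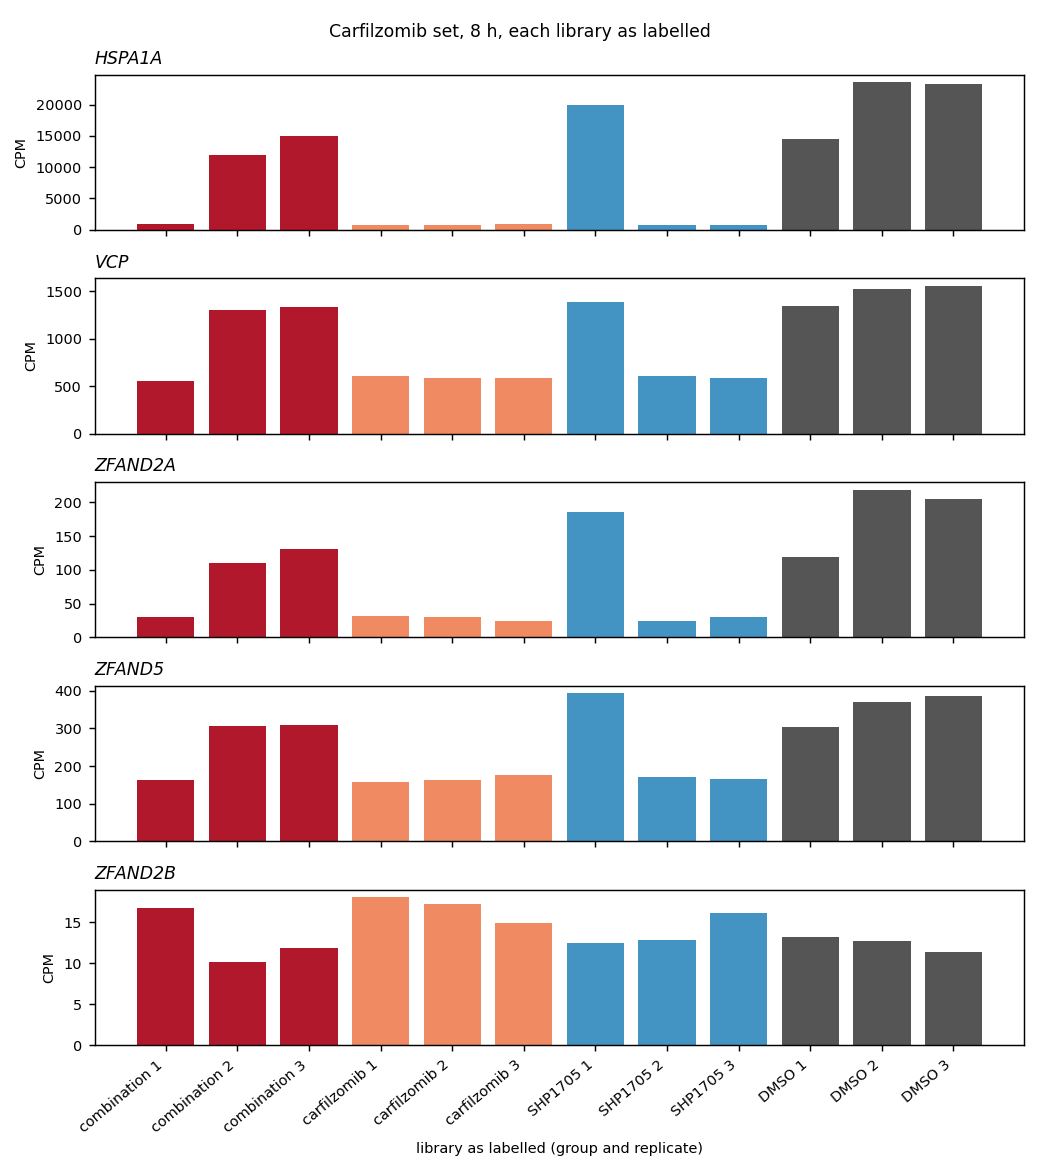
Levels of HSPA1A, VCP, ZFAND2A, ZFAND5 and ZFAND2B in each of the 12 libraries of the carfilzomib table at 8 h, in CPM on axes that start at 0, by labelled group and replicate. Replicate 1 labelled combination is low and replicate 1 labelled SHP1705 is high for the first 4 genes, apart from the libraries that share their labels.

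Taken by label, 8 members were lower in libraries labelled carfilzomib than in those labelled DMSO, where 11.3% of all 15577 genes were called lower, with log2 differences of -1.31 ± 0.34 for VCP and -2.67 ± 0.71 for ZFAND2A (SE; edgeR adjusted p = 0.040 for both). The count was 0 without replicate 2 or 3 labelled DMSO, and 0 without any 1 of the libraries labelled carfilzomib, while the log2 differences in those fits stayed at -1.28 to -1.34 for VCP and -2.52 to -2.74 for ZFAND2A. The other comparisons by label gave 0 member calls and 0% of all genes by edgeR. Members with an unadjusted edgeR p under 0.05 numbered 3 for SHP1705 against DMSO and 0 for the combination against DMSO. They numbered 7 for the combination against carfilzomib and 8 for the interaction. In the same order, 2244, 1454, 898 and 3951 of all 15577 genes had such a p. DESeq2 called 0, 0, 0 and 3 of these members, and its share of all genes is not given here. Without replicate 1 labelled combination and replicate 1 labelled SHP1705, the counts called were 9 for SHP1705 against DMSO, 10 for carfilzomib against DMSO, 0 for the combination against DMSO, 10 for the combination against carfilzomib and 10 for the interaction. In that fit the same comparisons called 36.3%, 47.3%, 0%, 27.2% and 47.7% of all genes. Since the libraries labelled DMSO held 14559 to 23605 CPM of HSPA1A, against 533 to 615 CPM in the DMSO libraries of the MG132 table, these counts describe labels and not treatments.

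The difference of the carfilzomib effects at 24 h and 8 h was fitted over the 24 libraries of both tables and carries the same limit. It was called for all 10 members, 9 higher at 24 h, where 16.3% of all genes were, and ZFAND2B lower, where 17.5% were. For the combination it was called higher for 4 members, where 4.96% of all genes were.

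Across the 36 libraries, with each gene's log2 CPM centred within its table, the genes whose pattern was most like that of VCP among 10726 candidates were NMT1, PSMD12, PSMD14, PSMD11 and NSFL1C, with Pearson's r of 0.993, 0.992, 0.992, 0.990 and 0.990. For ZFAND2A they were HSP90AA1, AHSA1, HMOX1, TCP1 and CCN1, with r of 0.991, 0.988, 0.986, 0.986 and 0.985. Among the 10, r with VCP was 0.980 for NPLOC4, 0.967 for UBXN4, 0.952 for ZFAND5, 0.945 for UFD1 and 0.944 for ZFAND2A. ZFAND2B had a negative r with each of the other 9, from -0.815 with FAF2 to -0.519 with ZFAND2A. These values are descriptions: the libraries fall into groups by treatment, share their scaling, and include the 12 whose labels are in doubt.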

How the data were processed

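The authors deposited raw read counts per gene in 3 tables of 12 libraries, made with Trimmomatic, FastQC, HISAT2 and featureCounts on hg38 per the submitters' processing notes. Tool versions, annotation and strand setting: not given in the sources used here. The counts were whole numbers, each column was matched to its sample by treatment and replicate, and 0 columns were left unused. Groups came from the labels alone.

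Within each table, genes were filtered with filterByExpr and scaled with TMM, and 4 groups of 3 libraries were fitted in edgeR 4.0.16 (limma 3.58.1, R 4.3.3) with the quasi-likelihood F-test, which was tested on simulated data. Adjustment was by Benjamini-Hochberg over all genes of a contrast, with a threshold of 0.05. Log2 fold changes used a prior count of 0.125. The SE of a log2 fold change was its absolute value divided by the square root of its F statistic. It therefore rests on the spread shared by all groups of a fit. Effects at 24 h and 8 h were compared in 1 fit of both carfilzomib tables. CPM are TMM-scaled, and levels per kb use exon lengths of the GENCODE v29 basic annotation. Scaling is within each library and would hide a shift in total RNA.

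The 10 members and all lists were chosen with earlier results of these data known. All members are named, with up to 3 called genes of each pathway list per contrast by smallest p and the 5 genes most like VCP or ZFAND2A by Pearson correlation with a mean of at least 5 CPM. The alternatives were RLE scaling, no filter, DESeq2 1.42.0, a block for replicate number, fits restricted to the compared groups, and omission of each library in turn. Added after seeing the data were fits without 2 libraries of the carfilzomib table at 8 h and without 4 of the MG132 table. The 36 pairs of replicates all differed beyond counting noise, by a chi-square per degree of freedom of at least 3.29. Plots were made in Python 3.11.15 with matplotlib 3.10.9. A result that needs a withheld item is not reported here.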

Additional observations from a re-analysis of the deposited data

Results flagged for a closer look

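The log2 effect of carfilzomib against DMSO differed between 24 h and 8 h, by the test of the difference in the fit of both tables, for all 10 genes. The differences (24 h minus 8 h) were 2.11 for VCP, 1.21 for NPLOC4, 2.01 for UFD1, 1.91 for NSFL1C, 0.73 for FAF1, 0.70 for FAF2, 1.52 for UBXN4, 3.41 for ZFAND2A, 1.29 for ZFAND5 and -0.86 for ZFAND2B. The log2 effect of the combination against DMSO differed by the same test for VCP (1.27), UFD1 (1.75), NSFL1C (1.20) and FAF1 (0.54). All of these rest on the 8 h libraries by their labels, and the libraries labelled DMSO at 8 h held 14559, 23605 and 23242 CPM of HSPA1A, against 715, 690 and 691 CPM in the DMSO libraries at 24 h. Whether the differences hold for the treatments was not tested.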

How the results depend on the processing

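For single genes 3194 alternative values were computed. Of these, 2999 kept their side of the threshold, 76 lost a call, 119 gained one and 0 called values reversed. Among the 2999, 51 values that were not called changed sign. The MG132 table had 9 calls with the combination against DMSO, 9 against MG132 and 9 in the interaction. These counts stayed at 9 to 10 in every fit that kept more than a single library per group. Leaving out 1 library added ZFAND2B in 6 fits against DMSO. The 10 calls for carfilzomib and the 9 for the combination against DMSO at 24 h kept their counts in every alternative.

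In the carfilzomib table at 8 h, without the filter on low counts, 6 members were called for SHP1705 against DMSO, 2 for the combination against DMSO, 7 for the combination against carfilzomib and 7 for the interaction. DESeq2 called 3 for the interaction, and without the 2 libraries that stood apart the counts were 9 for SHP1705 against DMSO, 10 for the combination against carfilzomib and 10 for the interaction. Leaving out 1 library at a time gave 0 to 7 for SHP1705 against DMSO (7 without replicate 1 labelled SHP1705), 0 to 10 for carfilzomib against DMSO and 0 to 9 for the interaction (9 without replicate 1 labelled SHP1705 or combination). At 24 h, DESeq2 and the fit of only the groups compared each called 1 member for SHP1705 against DMSO, and the fit of only those groups called 1 for the combination against carfilzomib. Leaving out 1 library gave 0 to 1 and 1 to 3 calls in these comparisons. For the 24 h interaction, 1 was called without the filter, 2 by DESeq2 and 0 to 2 with 1 library left out. For the combination, the difference between 24 h and 8 h was called for 8 members without the filter, 8 without the 2 libraries that stood apart and 2 to 7 with 1 library left out (2 without replicate 2 or 3 labelled DMSO at 8 h, replicate 1 of DMSO at 24 h or replicate 1 of the combination at 24 h, and 7 without replicate 1 labelled SHP1705 at 8 h). For all but the 8 h fit without the 2 libraries that stood apart, the share of all genes called in the same fit is not given here. These counts therefore show how the calls depend on the processing and are not results about the members. The cause of the changes in these counts was not tested.

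With the replicate number as a block, 0 members were called for carfilzomib against DMSO in the table at 8 h and 2 for the combination in the difference between 24 h and 8 h, and the count of calls did not change in any other comparison. Of 18 same-numbered pairs in each table, 0 had a correlation over 0.1 at 24 h, 1 in the carfilzomib table at 8 h and 1 in the MG132 table. In the carfilzomib table at 8 h, r ran from -0.657 to 0.229. Pairs with different numbers were not compared, so these counts cannot decide whether the numbers pair the libraries. RLE scaling moved the median of all genes by at most 0.0187 on the log2 scale. Depth limits ZFAND2B most, with at least 224 counts in a library, and intervals for the 8 h carfilzomib table are wide, with a fitted biological coefficient of variation of 0.172 against 0.0455 in the MG132 table and 0.0672 at 24 h.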
